A study of Homo sapiens with 11 samples.

Results

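The aminoacyl-tRNA synthetases are described here as 36 genes, found by their symbols in the gene column of the deposited tables, out of 25590 genes in all. They comprise 20 cytosolic enzymes, from AARS to YARS, and 16 mitochondrial enzymes, from AARS2 to YARS2. PC-3, an established human prostate cancer cell line, had been grown as subcutaneous tumours in young adult male athymic nude mice (Crl:NU-Foxn1nu), which lack T cells but keep other host cells. The mice received repeated intraperitoneal injections of A2M* (transformed alpha-2-macroglobulin, labelled A2M) or, in the control group, of PBS. RNA was sequenced from 6 tumours of the A2M group (T128 to T132 and T112, by tumour number) and 5 of the PBS group (T123 to T127), with 1 library per tumour, and the question was which tumour genes differ with the treatment.

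Aminoacyl-tRNA synthetases join each amino acid to its tRNA and so supply protein synthesis. The cytosol and the mitochondria have separate sets, nearly all encoded in the nucleus by separate genes, whereas GARS and KARS each encode the enzyme of both compartments. Several cytosolic enzymes are held in a multisynthetase complex by scaffold proteins, and many cytosolic synthetase genes are known targets of ATF4, the transcription factor of the amino acid response, while WARS is known to respond to interferon.

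Between 16958533 and 35874381 human reads per tumour were counted on genes. Every synthetase was expressed in every tumour, with the lowest count in any tumour being 169, and all 36 were among the 16630 genes that passed the filter on low counts. The cell line's markers were present, with KRT8 at a mean CPM (counts per 1e+06 counts, TMM-normalized) of 585 ± 40.9 (SD, n = 5) in the PBS group, while KLK3, a marker of androgen-responsive prostate cells, had 0 counts in all tumours. Markers of mouse stroma, which the sorting of reads by species was meant to remove, were summed over 14 genes. The sums were 373 to 752 CPM in the PBS group and 371 to 983 CPM in the A2M group. Most of each sum came from 1 gene, COL1A1, with means of 456 CPM in the PBS group and 588 CPM in the A2M group. The part of these markers in the results was not tested. Of the 11 such markers that passed the filter, the fibroblast collagen gene COL1A2 had the higher mean in A2M (log2 fold change 0.73 ± 0.33, unadjusted p = 0.0459 by edgeR) and VWF, of endothelium, the lower one (-0.42 ± 0.17, unadjusted p = 0.0247 by edgeR). Both were very low, with means in PBS and A2M of 2.09 and 3.51 CPM for COL1A2 and of 0.953 and 0.703 CPM for VWF. In such bulk samples fewer cells of a type and less RNA per cell cannot be told apart.

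The promoters are shown first because the group is known for a shared element, the C/EBP-ATF response element that ATF4 binds. Promoter windows from RefSeq (GRCh38.p14, from 250 bases before to 50 bases after the start) were matched for 30 of the 36 genes. The letters TGATGNAA were searched on both strands and were found in 3.62% of all 35116 windows and in at least 1 window of 4.46% of genes. They occurred in 7 of the 16 cytosolic genes with a window and in 1 of the 14 mitochondrial genes. The 8 matches are printed 5′ to 3′ on the strand of the gene, with the matching letters in capitals and 11 flanking bases on each side, and a match describes letters, not binding.

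AARS (chr16:70289675-70289704, minus strand): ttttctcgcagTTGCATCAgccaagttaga
CARS (chr11:3057407-3057436, minus strand): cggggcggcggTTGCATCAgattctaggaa
GARS (chr7:30594834-30594863, plus strand): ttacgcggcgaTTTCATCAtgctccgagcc
IARS (chr9:92293692-92293721, minus strand): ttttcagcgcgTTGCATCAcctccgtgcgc
MARS (chr12:57488053-57488082, plus strand): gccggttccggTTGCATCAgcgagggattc
NARS (chr18:57621804-57621833, minus strand): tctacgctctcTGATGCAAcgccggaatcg
TARS (chr5:33440956-33440985, plus strand): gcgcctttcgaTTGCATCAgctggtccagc
YARS2 (chr12:32756076-32756105, minus strand): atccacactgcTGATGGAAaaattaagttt

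Of the 7 cytosolic matches, 6 had the same 8 letters, TTGCATCA or its complement TGATGCAA, and GARS had TTTCATCA. The matches of CARS and MARS spanned the start site, at bases -2 to 6 and -4 to 4, those of IARS and GARS lay just before it, at -13 to -6 and -33 to -26, and those of TARS and NARS lay just after it, at 3 to 10 and 15 to 22. Only AARS, at -187 to -180, and YARS2, at -197 to -190, had the letters far upstream among these 8 genes. Another search, for GAAA and GAAA with 2 bases of any kind between them, the core letters of interferon-responsive elements, is shown for WARS because of its known response to interferon.

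WARS (chr14:100375383-100375412, minus strand): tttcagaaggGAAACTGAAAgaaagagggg
EARS2 (chr16:23557554-23557583, minus strand): cctgccacgcTTTCGCTTTCccaagctgaa

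In WARS these letters stood at bases -55 to -46 of its window, and EARS2 held them on the other strand in both of its overlapping windows. They were found in 3.57% of all windows, in 1 of the 16 cytosolic genes and in 1 of the 14 mitochondrial genes.

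Levels were compared between genes in RPKM, reads per kilobase of exon and 1e+06 counted reads, as deposited. The median over the 20 cytosolic genes was 38.6 RPKM, and that over the 16 mitochondrial genes was 8.76 RPKM. In each tumour the cytosolic median was divided by the mitochondrial one. This ratio was 3.90, 4.38, 4.49, 4.55 and 4.20 in PBS tumours T123 to T127 and 4.29, 4.26, 4.89, 4.24, 3.87 and 4.54 in A2M tumours T128 to T132 and T112. The groups overlapped, with means of 4.31 ± 0.263 (SD, n = 5) and 4.35 ± 0.342 (SD, n = 6). Over all tumours it was 4.33 ± 0.295 (SD, n = 11).

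**Figure D1:**
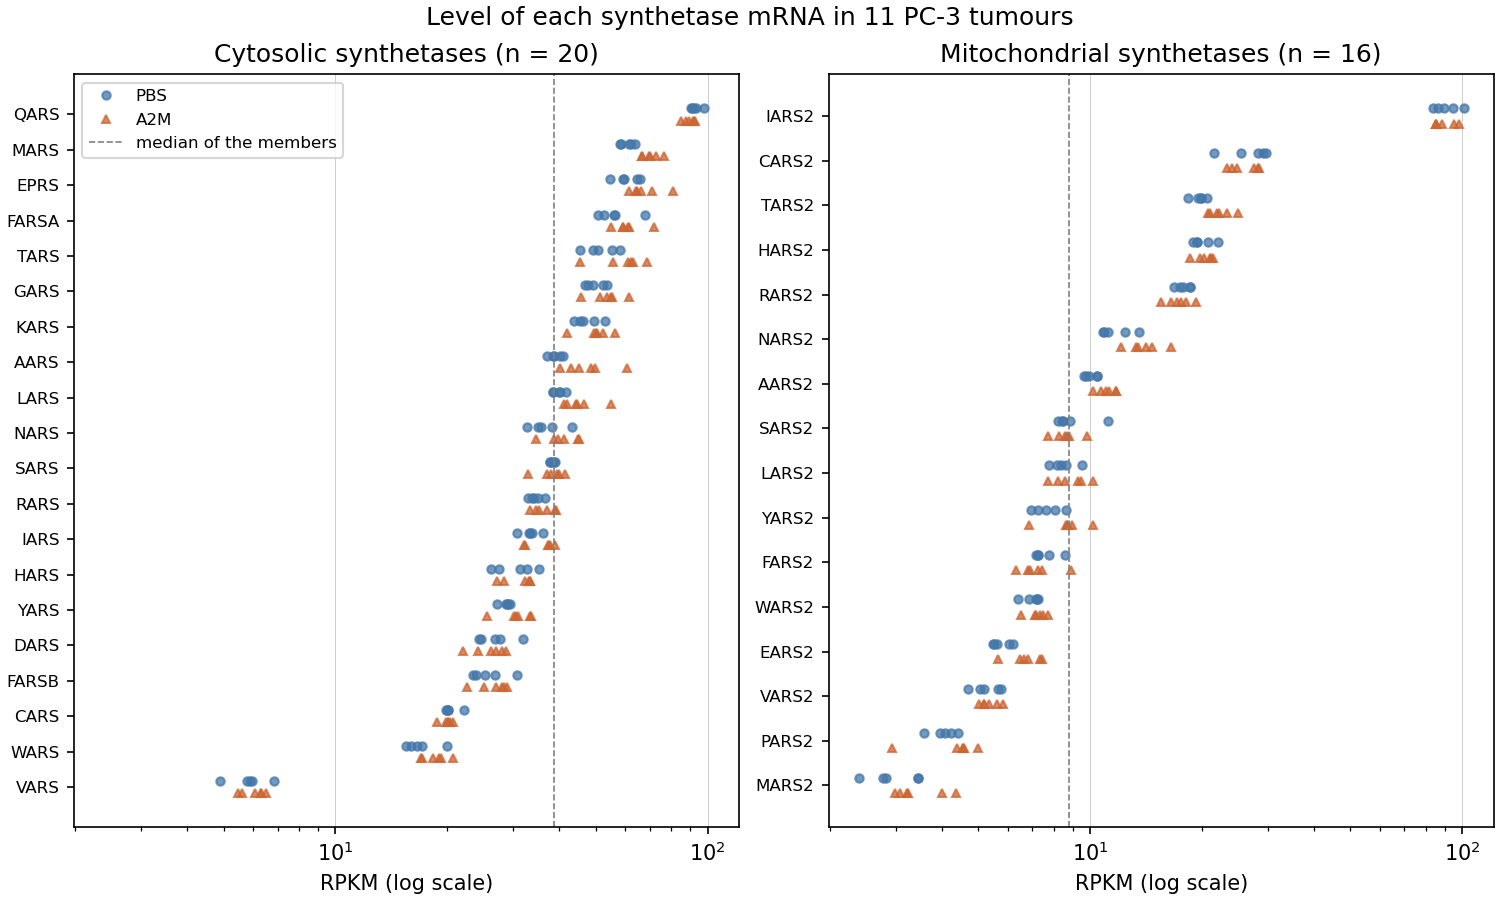
RPKM of each synthetase on a log axis, with 1 point per tumour (circles, PBS, n = 5; triangles, A2M, n = 6) and a dashed line at the median of the members. QARS was highest among the 20 cytosolic genes at a mean of 91.1 RPKM, and IARS2 stood apart from the other mitochondrial genes at 90.1 RPKM.

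QARS, the glutaminyl-tRNA synthetase of the multisynthetase complex, had the highest mean of all members, with 90.5 to 97.8 RPKM in the PBS group and a median of 92.2. In the A2M group it ranged from 84.8 to 92.6 RPKM, with a median of 90.4. It was also the steadiest, with a coefficient of variation of 3.64% over the 11 tumours. MARS, the methionyl-tRNA synthetase that also charges the initiator tRNA, followed among the cytosolic genes at 66.1 ± 5.87 RPKM (SD, n = 11), and EPRS, which charges glutamate and proline with a single protein, at 64.8 ± 6.82 RPKM. The order of MARS and EPRS was not fixed, since MARS was higher in only 6 of the 11 tumours.

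FARSA and FARSB encode the alpha and beta subunits of the cytosolic phenylalanyl-tRNA synthetase. Their RPKM values were 59.3 ± 6.30 and 26.4 ± 2.58 (SD, n = 11). The exon length that the deposited RPKM of FARSB implies was 2233 bases, or 0.330 times its canonical GENCODE transcript of 6761 bases, so that its level depends on which transcript is taken.

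VARS and WARS were lowest among the cytosolic genes. VARS, for valine, had 4.90 to 6.82 RPKM in the PBS group (median 5.91) and 5.48 to 6.52 in the A2M group (median 6.18). Its RPKM was low in proportion to its reads, because the length implied by the deposited values was 26617 bases against 4111 bases in its canonical transcript, or 6.48 times as long. The same held for its mitochondrial counterpart VARS2, with 22422 against 3575 bases. Per base of the canonical transcript VARS reached 38.6 ± 3.44 counts per kilobase and 1e+06 counts (SD, n = 11), and its rank among the 36 moved from 33 to 13. SARS, for serine, had an implied length 2.55 times that of its canonical transcript, and by canonical length it stood at rank 2 rather than 12. WARS, for tryptophan, had 15.5 to 19.99 RPKM in the PBS group (median 16.6) and 16.97 to 20.7 in the A2M group (median 18.7), and it was the lowest cytosolic gene apart from VARS on the RPKM scale.

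Levels also described the complex. The 8 cytosolic members of the multisynthetase complex (DARS, EPRS, IARS, KARS, LARS, MARS, QARS and RARS) had a median of 46.0 RPKM, from 26.5 to 91.1, against a median of 34.6 RPKM, from 5.97 to 59.3, over the 12 cytosolic members outside it. The ranges overlapped.

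Among the mitochondrial genes IARS2, which charges isoleucine (chr1:220267474-220321383, plus strand, GRCh37), was set apart. It had 83.5 to 100.9 RPKM in the PBS group (median 89.7) and 84.8 to 98.3 in the A2M group (median 86.7). It was the only mitochondrial gene above the cytosolic median, and QARS exceeded it in 7 of 11 tumours, so that the order of these 2 genes was not fixed. CARS2, for cysteine, came next at 21.5 to 29.6 RPKM in the PBS group (median 28.2) and 23.4 to 28.5 in the A2M group (median 26.2). TARS2, for threonine, had 21.1 ± 1.90 RPKM (SD, n = 11), which exceeded HARS2, for histidine, in only 6 of the 11 tumours.

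MARS2 and PARS2, which charge methionine and proline in mitochondria, had the lowest levels. MARS2 ranged from 2.39 to 3.45 RPKM in the PBS group (median 2.83) and from 2.98 to 4.35 in the A2M group (median 3.23), and with a coefficient of variation of 17.1% it was the most variable of the 36. PARS2 ranged from 3.57 to 4.43 RPKM in the PBS group (median 4.08) and from 2.94 to 4.98 in the A2M group (median 4.55). The remaining mitochondrial genes (AARS2, EARS2, FARS2, HARS2, LARS2, NARS2, RARS2, SARS2, VARS2, WARS2 and YARS2) lay between 5.32 and 20.2 RPKM. The lowest of these was VARS2, whose RPKM rests on the long implied length given above. Of the 35 pairs of neighbours in the order of all 36 levels, 5 kept the same order in every tumour.

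For 13 amino acids 1 cytosolic gene was paired with the mitochondrial gene of the same name. Glutamate, proline and phenylalanine also have both enzymes on the list but were left out of the pairs, because EPRS charges 2 amino acids and FARSA and FARSB encode subunits of 1 enzyme. In 10 of the 13 the cytosolic mRNA was higher in every tumour, and the excess ranged from 1.54 ± 0.172 times (SD, n = 11) for HARS over HARS2 to 20.7 ± 2.75 times for MARS over MARS2. The reverse held in all 11 tumours for 2 amino acids. IARS reached 0.388 ± 0.0347 times the level of IARS2, and CARS 0.772 ± 0.0967 times that of CARS2. VARS and VARS2 were close, at 1.12 ± 0.0861, with VARS higher in 10 of 11 tumours. With canonical lengths, a comparison added after the values were seen, the same 10 of 13 pairs had the cytosolic gene higher in every tumour.

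**Figure D2:**
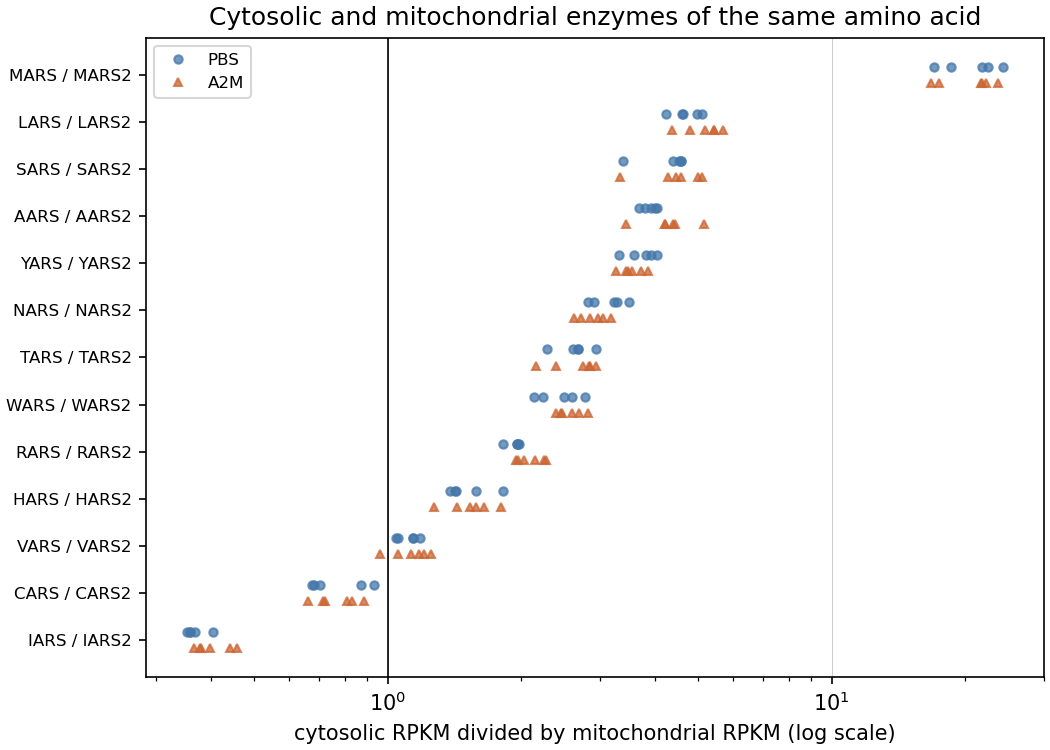
Cytosolic RPKM divided by mitochondrial RPKM for the 13 pairs of cytosolic and mitochondrial genes of the same name, on a log axis with a line at equality and 1 point per tumour (circles, PBS; triangles, A2M). IARS / IARS2 and CARS / CARS2 lie below 1 in all 11 tumours, and MARS / MARS2 lies highest, at a mean of 20.7.

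HARS and HARS2 lie head to head on chromosome 5 (GRCh37, GENCODE). HARS, on the minus strand, spans chr5:140052620-140071122 and HARS2, on the plus strand, chr5:140071015-140078890. The canonical HARS transcript overlapped exons of WDR55, not of HARS2, over 11.3% of its length. That of HARS2 overlapped exons of HARS and ZMAT2 over 9.52% of its length. The canonical transcript of SARS2 was overlapped over 77.5% of its length by another annotated gene on its strand, and that of VARS2 over all of its length. These overlaps are from GENCODE, whereas the reads were counted on RefSeq genes. Whether the counting annotation held the same overlaps, and how their reads were assigned, is not given in the sources used here. The values of these genes are uncertain to that extent. MARS shared 65 bases with exons of DDIT3, which encodes the stress factor CHOP and lies on the other strand.

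The comparison of the groups used edgeR's quasi-likelihood test over all 16630 genes, and p-values were adjusted by the Benjamini-Hochberg method, with 0.01 as the threshold. None of the 36 synthetases passed it, and neither did any other gene, so that 0% of genes were called, while 1178 genes had a p under 0.05 before adjustment. DESeq2 called 1 gene, which was not a synthetase. Among the members the smallest adjusted p from edgeR was 0.640. Without adjustment, 6 of the 36 (16.7%) had a p under 0.05, against 7.08% of all genes tested. All 6 had the higher mean in the A2M group, where 3.55% of all genes were found in that direction, and 0 had the lower mean. The members were MARS, AARS and LARS in the cytosol and NARS2, TARS2 and EARS2 in mitochondria, with log2 fold changes between 0.15 and 0.25. DESeq2 also found 6 members at an unadjusted p under 0.05, against 7.41% of all genes, and limma-voom found 5, against 7.09%. These shares describe the list and are no test of it.

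**Figure D3:**
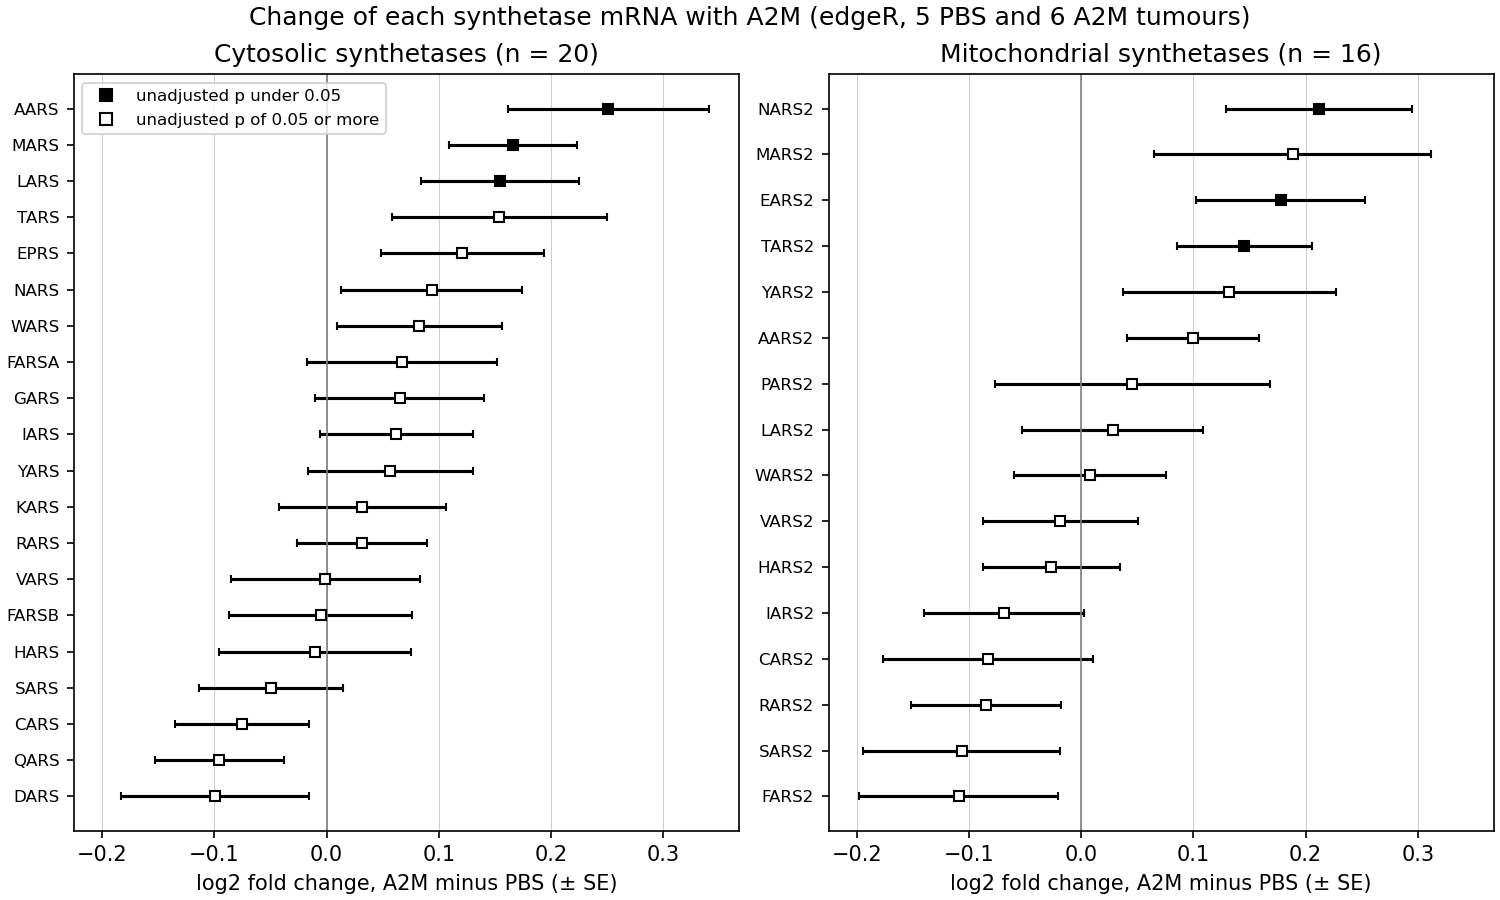
Log2 fold change of each synthetase, A2M minus PBS, with its standard error from edgeR (5 PBS and 6 A2M tumours), separately for the 20 cytosolic and 16 mitochondrial genes; filled squares have an unadjusted p under 0.05. The 6 filled squares all lie above 0, between 0.15 and 0.25.

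Over all 36 members the median log2 fold change was 0.04, with 0.06 over the cytosolic and 0.02 over the mitochondrial ones, against -0.002 over all genes tested. A positive value was found for 22 of 36 (61.1%) against 49.4% of all genes. Of all genes with an unadjusted p under 0.05, 591 had the higher mean in A2M and 587 the lower one. Scaling by library size alone turned this split to 1022 and 308 and moved the median of all genes to 0.04, so that directions are relative to the TMM scaling.

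MARS had the smallest p of the cytosolic genes. It measured 184, 189, 176, 169.9 and 183 CPM in PBS tumours T123 to T127. In A2M tumours T128 to T132 and T112 it measured 210.4, 205, 198, 217, 190.0 and 195 CPM. The groups did not overlap, since the lowest A2M tumour, T132, lay above the highest PBS tumour, T124. The log2 fold change was 0.17 ± 0.06 (SE), with an unadjusted p of 0.0114 and an adjusted p of 0.640 (edgeR). With DESeq2 its adjusted p was 0.248. The gene lies on the plus strand at chr12:57869228-57911352 (GRCh37).

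AARS, the alanyl-tRNA synthetase (chr16:70285886-70323610, minus strand, GRCh37), had the largest fold change of the 36. It measured 133, 134, 128.7, 128.4 and 139 CPM in the PBS tumours, and 161, 167, 147, 197, 131.3 and 144 CPM in the A2M tumours in the same order as before. Tumour T131 was far above the rest, whereas tumour T132 lay within the PBS range. The log2 fold change was 0.25 ± 0.09 (SE), with an unadjusted p of 0.0143 and an adjusted p of 0.640 (edgeR). Without tumour T131 it was 0.18, the lowest value when any single tumour was left out. AARS and MARS kept an unadjusted p under 0.05 (edgeR) in each of the 11 fits without 1 tumour. Both were named for their small p with all tumours, and these fits share most tumours, so that this is no separate test. How many other genes did the same was not counted.

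LARS, the leucyl-tRNA synthetase, also known as a leucine sensor of the mTORC1 pathway, measured 193, 195, 194, 201 and 197 CPM in the PBS tumours. Its values in the A2M tumours were 199, 216, 219.5, 259, 198 and 217 CPM, so that tumours T128 and T132 lay inside the PBS range and tumour T131 far above it. The log2 fold change was 0.15 ± 0.07 (SE; edgeR, unadjusted p = 0.0467, adjusted p = 0.699). The p stayed under 0.05 in 2 of the 11 fits without 1 tumour, those without tumour T128 or T132.

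NARS2, the mitochondrial asparaginyl-tRNA synthetase, measured 33.7, 28.6, 28.6, 31.0 and 28.8 CPM in the PBS tumours. In the A2M tumours it measured 33.3, 37.01, 34.6, 40.5, 29.7 and 34.1 CPM. Tumour T131 was highest again, and the groups overlapped through PBS tumours T123 and T126 and A2M tumours T128 and T132. The log2 fold change was 0.21 ± 0.08 (SE; edgeR, unadjusted p = 0.0230, adjusted p = 0.647).

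TARS2 (chr1:150459890-150480078, plus strand, GRCh37) measured 56.9, 56.8, 53.0, 54.9 and 56.5 CPM in the PBS tumours and 57.5, 65.0, 60.4, 67.8, 57.3 and 61.4 CPM in the A2M tumours. As for MARS, the groups did not overlap, but A2M tumours T128 and T132 lay just above the highest PBS value. The log2 fold change was 0.15 ± 0.06 (SE; edgeR, unadjusted p = 0.0306, adjusted p = 0.663). MARS and TARS2 were the 2 of 36 members without overlap and with the higher values in A2M, where 0.385% of all genes had that pattern.

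EARS2, the mitochondrial glutamyl-tRNA synthetase, measured 24.3, 23.3, 22.7, 23.8 and 22.1 CPM in the PBS tumours. It measured 29.3, 27.0, 25.1, 28.2, 25.7 and 22.5 CPM in the A2M tumours, of which T112 alone fell inside the PBS range. The log2 fold change was 0.18 ± 0.08 (SE; edgeR, unadjusted p = 0.0335, adjusted p = 0.677). None of the 3 mitochondrial genes kept an unadjusted p under 0.05 without tumour T125 or without tumour T131. EARS2 also lost it without T124, T127, T128 or T129, NARS2 without T124 or T127, and TARS2 without T129.

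**Figure D4:**
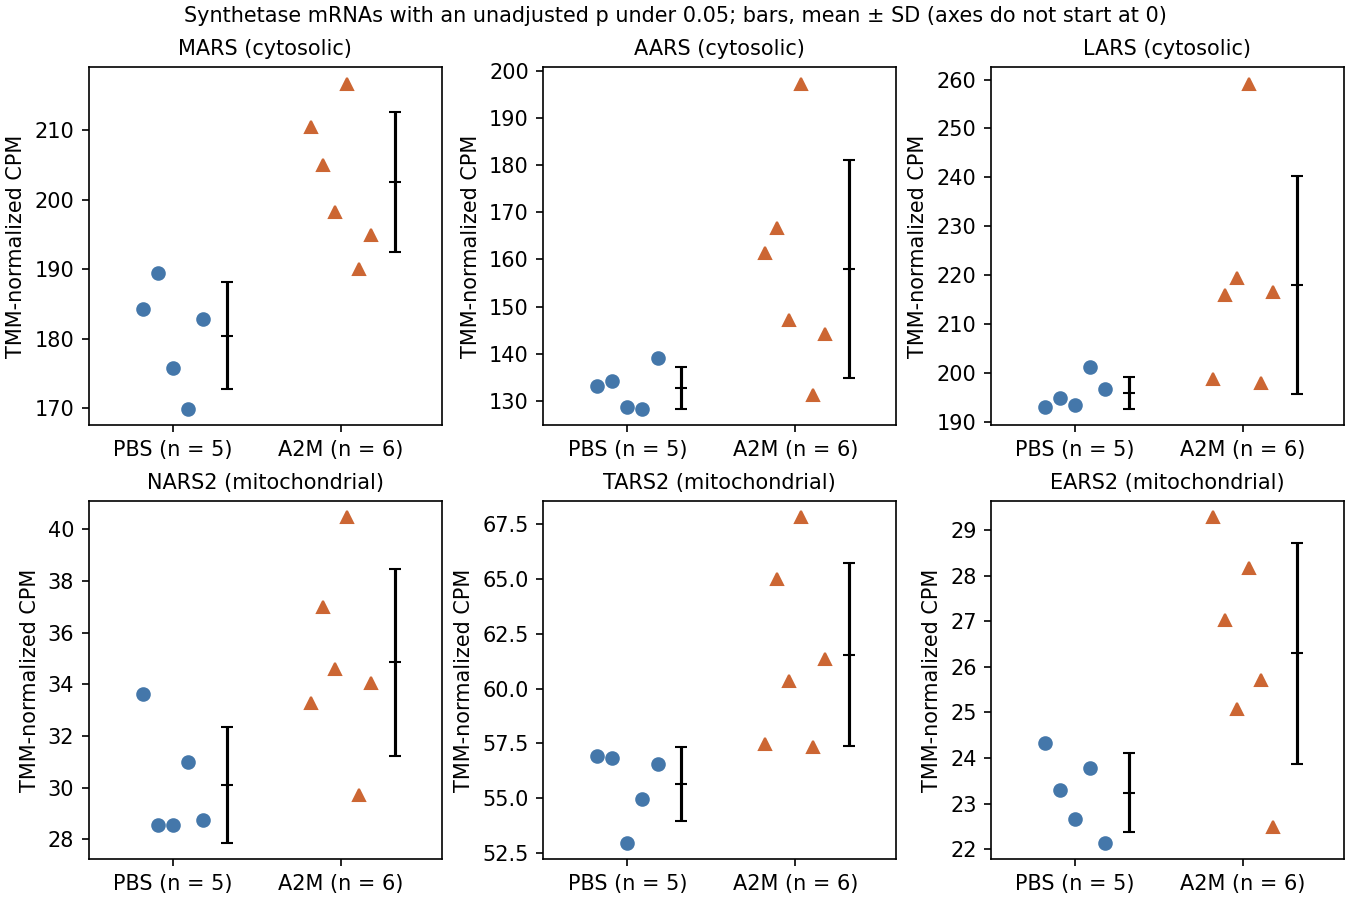
TMM-normalized CPM of the 6 synthetases with an unadjusted p under 0.05, 1 point per tumour, with the mean and SD of each group beside the points; the axes do not start at 0. MARS and TARS2 do not overlap between the groups, and A2M tumour T131 is the highest point of 5 of the panels and the second highest of EARS2.

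The other members that the naming rule singles out did not reach that p. QARS had a log2 fold change of -0.10 ± 0.06 (SE; edgeR, unadjusted p = 0.119), with 253 to 288 CPM in the PBS group and 232.5 to 262 in the A2M group. EPRS had 0.12 ± 0.07 (edgeR, unadjusted p = 0.120), with 286 to 329 CPM in the PBS group and 301 to 393 in the A2M group. AARS2, the mitochondrial alanine enzyme, had 0.10 ± 0.06 (edgeR, unadjusted p = 0.113), with 45.9 to 52.2 CPM in the PBS group and 49.0 to 54.7 in the A2M group. WARS had 0.08 ± 0.07 (edgeR, unadjusted p = 0.281).

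IARS2 had a log2 fold change of -0.07 ± 0.07 and CARS2 of -0.08 ± 0.09. MARS2, with a larger error than most, had 0.19 ± 0.12, and PARS2 had 0.05 ± 0.12. VARS, at -0.001 ± 0.08, differed least, and the sign of its value turned under several alternatives. The remaining cytosolic members (CARS, DARS, FARSA, FARSB, GARS, HARS, IARS, KARS, NARS, RARS, SARS, TARS and YARS) had log2 fold changes between -0.10 for DARS and 0.15 for TARS. Those of the remaining mitochondrial members (FARS2, HARS2, LARS2, RARS2, SARS2, VARS2, WARS2 and YARS2) lay between -0.11 for FARS2 and 0.13 for YARS2. The biological coefficient of variation of the members had a median of 9.47%, against 12.4% over all genes.

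By complex, 2 of the 8 members in the multisynthetase complex (MARS and LARS) and 1 of the 12 cytosolic members outside it (AARS) had an unadjusted p under 0.05, where 7.08% of all genes did. None of the 3 scaffold genes, AIMP1, AIMP2 and EEF1E1, did. By promoter letters, 6 of the 7 cytosolic genes with TGATGNAA had a positive fold change and 2 of them (AARS and MARS) an unadjusted p under 0.05, with a median log2 fold change of 0.09. Of the 9 cytosolic genes whose window lacked the letters, 5 had a positive fold change and 0 an unadjusted p under 0.05, with a median of 0.03. Of all genes tested, 49.4% had a positive fold change and 7.08% an unadjusted p under 0.05. LARS, which had such a p, and DARS, VARS and YARS had no window and are in neither count. Among 14 genes that work beside the synthetases, such as those for the tRNA exporter XPOT and the elongation factors EEF1A1 and TUFM, 13 were tested and 0 had an unadjusted p under 0.05.

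The values were also compared tumour by tumour. In A2M tumour T132, 0 of the 20 cytosolic members were above their mean over the 11 tumours, and 10 had their lowest value there, with a median difference of -0.14 (log2). In A2M tumour T131, 16 of the 20 were above their mean and 8 had their highest value, with a median difference of 0.12. Tumours T128, T130 and T112 of the A2M group also had 16 of 20 above the mean, whereas PBS tumour T127 had 4 of 20. The mitochondrial members followed less closely, with 7 of 16 above their mean in tumour T132 and 10 of 16 in tumour T131. Such counts were made for the synthetases only. Whether other genes had the same pattern in these tumours was not tested. Tumour T132 had 22310631 counts and 654 CPM of stroma markers, and tumour T131 had 26930311 counts and 825 CPM, and the part of either in these patterns was not tested. In the group means these marker sums were mostly COL1A1.

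**Figure D5:**
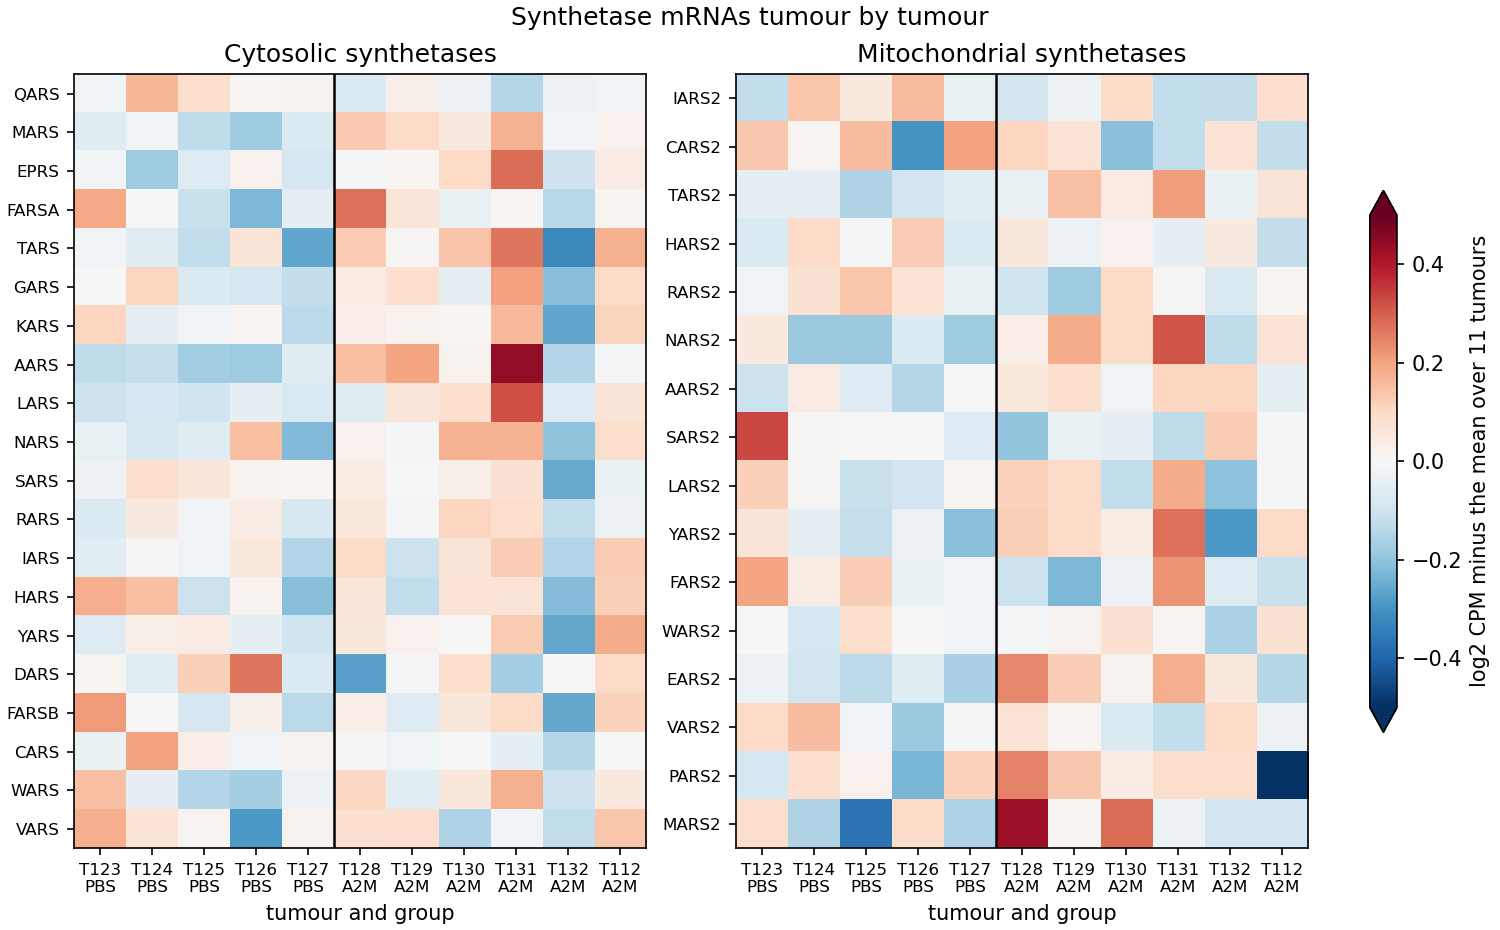
Log2 CPM of each synthetase minus its mean over the 11 tumours (red above, blue below; rows in order of level, PBS tumours to the left of the line). The cytosolic column of A2M tumour T132 is below the mean in all 20 rows, whereas in tumour T131 16 of 20 rows are above it.

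Without tumour T132, 8 members had an unadjusted p under 0.05, since TARS and YARS2 were added, and all 8 had the higher mean in A2M. The share of all genes was also larger in that fit, at 10.1% against 7.08% with all tumours. Without tumour T131 or without tumour T125 only AARS and MARS were left, where the share of all genes was 4.61% and 4.09%. Over the 11 fits the number was 2 to 8, and the direction was higher in A2M for each of them.

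Genes of the amino acid response had differences in both directions. Of 33 genes on that list, 14 had a positive and 19 a negative log2 fold change, and 4 (12.1%) had an unadjusted p under 0.05, against 7.08% of all genes (edgeR). ASNS, the asparagine synthetase, had the higher mean in the A2M group, with a log2 fold change of 0.23 ± 0.10 (SE; edgeR, unadjusted p = 0.0423). ATF4 itself had the lower mean, with -0.13 ± 0.06 (edgeR, unadjusted p = 0.0476). So did the secreted hormone gene STC2, with -0.47 ± 0.18 (edgeR, unadjusted p = 0.0205), and EIF4EBP1, a repressor of cap-dependent translation, with -0.27 ± 0.09 (edgeR, unadjusted p = 0.0110). By edgeR no adjusted p on this list was under 0.640. ATF4 measured 327, 367, 349.9, 316.5 and 337 CPM in PBS tumours T123 to T127, and 285 to 325 CPM in the A2M tumours, and the groups overlapped.

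The synthetases were then related to ASNS among tumours of the same group, by adding its log2 CPM to the edgeR fit. ASNS had 37.4, 43.5, 41.4, 35.1 and 48.4 CPM in the PBS tumours and 52.7, 50.8, 43.3, 51.3, 54.3 and 38.4 CPM in the A2M tumours. With a threshold of 0.05 on the adjusted p, 186 genes were called (1.12% of those tested, ASNS itself among them) and 0 of the 36 synthetases. At an unadjusted p under 0.05 there were 6 of 36 (16.7%), against 24.2% of all genes. The number of genes called was unstable, from 0 to 2457 when 1 tumour was left out. Slopes are given as log2 changes per log2 unit of ASNS.

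All 3 cytosolic genes among these 6 had negative slopes and all 3 mitochondrial genes had positive ones. DARS, for aspartate, had -0.55 ± 0.19 (SE; edgeR, unadjusted p = 0.0129, adjusted p = 0.111), NARS, for asparagine, -0.50 ± 0.19 (adjusted p = 0.138 by edgeR), and FARSB -0.46 ± 0.20 (adjusted p = 0.181 by edgeR). PARS2 had 0.98 ± 0.25 (edgeR, unadjusted p = 0.00176, adjusted p = 0.0589), CARS2 0.57 ± 0.22 (adjusted p = 0.140 by edgeR) and AARS2 0.34 ± 0.14 (adjusted p = 0.157 by edgeR). Over all members 14 of 20 cytosolic slopes were negative and 9 of 16 mitochondrial slopes positive. Of all 16630 genes tested, 8510 had a positive and 8120 a negative slope. At an unadjusted p under 0.05 (edgeR) these numbers were 2057 and 1974. The difference between the compartments was not tested. Of the 7 cytosolic genes with the TGATGNAA letters, 3 had a positive slope.

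PARS2 measured 9.35, 10.5, 10.1, 8.48 and 10.8 CPM in PBS tumours T123 to T127, and 11.8, 10.9, 10.2, 10.6, 10.6 and 7.04 CPM in the A2M tumours, with its lowest value in tumour T112, where ASNS was also lowest of the A2M group. The PBS tumour lowest in both was T126. After removal of the group means, its log2 CPM correlated with that of ASNS over the 11 tumours with Pearson's r of 0.869 (exact permutation inside the groups, p = 0.000289) and Spearman's rho of 0.864 (exact permutation, p = 0.00186). Without tumours T132 and T126, the farthest from the median of ASNS before the group means were removed, r was 0.868. Tumour T112, lowest of the A2M group in both genes, was kept in this check, so that its weight in r was not tested. PARS2 was picked for this check after its slope was seen, as the smallest p of 36, so that these p-values are too small. With DESeq2 it was the only member called (adjusted p = 0.00905), where 9.22% of all genes were called. Without tumour T131 PARS2 and NARS were called (adjusted p = 0.0255 and 0.0382, edgeR), where 14.8% of all genes were. In both fits the share of members called was below that of all genes.

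Of the other interferon-induced genes, a list of 17 was examined beside WARS, which is known to respond to interferon. Of these, 16 were tested between the groups, and 0 had an unadjusted p under 0.05 by edgeR, against 7.08% of all genes. With 16 genes that difference is too small to be read as a result. WARS, whose window holds the interferon-type letters, measured 58.7, 51.4, 47.7, 47.1 and 51.9 CPM in the PBS tumours and 56.8, 50.9, 54.9, 59.8, 49.2 and 54.7 CPM in the A2M tumours. The groups overlapped, with the highest values in A2M tumour T131 and PBS tumour T123, and its log2 fold change of 0.08 ± 0.07 (SE; edgeR, unadjusted p = 0.281, adjusted p = 0.873) was within the spread between tumours.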

How the data were processed

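RNA of 11 PC-3 tumours was sequenced with 1 library per tumour. The authors sorted reads by species with xenome, mapped the human ones to hg19 with TopHat2 and counted them per RefSeq gene with featureCounts, and the counts were deposited as such, not normalized. Per the submitters' processing notes, bcl2fastq 1.8.4 was used; the strand setting and the handling of reads with several positions are not given in the sources used here. The deposited RPM values are counts per 1e+06 counted reads, and the deposited RPKM values are RPM per kilobase of exon, as the authors computed them.

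Counts were filtered (filterByExpr), normalized (TMM) and tested with edgeR 4.0.16 in R 4.3.3 over 16630 genes. DESeq2 1.42.0, limma-voom (limma 3.58.1), other scalings and filters and each tumour left out were alternatives. CPM are TMM-normalized, log2 CPM used a prior count of 2, and the floor of 3 counts equalled 0.0836 to 0.177 RPM, for counting error only. Groups were taken from the labels. Whether each tumour came from a mouse of its own is not given in the sources used here, so p-values measure the spread between these tumours.

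Members and lists were chosen with earlier results of these data known. All 36 members are accounted for. Values are given for the 4 smallest p, the 3 highest and 2 lowest RPKM in each compartment, WARS and any member called in a relation, and for ATF4, ASNS and list genes with an unadjusted p under 0.05. DARS, NARS, FARSB and genes named for length or overlap were chosen after their values were seen. A planned relation to 1 other gene, and what rested on it, is not reported here. Gene positions are from GENCODE on GRCh37, and promoters from RefSeq on GRCh38.p14. Figures were drawn with matplotlib 3.10.9.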

Additional observations from a re-analysis of the deposited data

Results flagged for a closer look

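Within a group, a single tumour lay far from the others for 7 of the 74 sets of values searched (36 members and the ratio of compartments, in 2 groups). Chance flags about 1 in 20 sets, or 3.70 of 74. In the PBS group, CARS measured 65.4 CPM in tumour T124 against 55.6 to 58.2 in the other PBS tumours. SARS2 measured 23.6 CPM in PBS tumour T123 against 17.9 to 18.8. In the A2M group, tumour T132 was far below the rest for 3 members. It had 51.6 CPM of CARS against 55.2 to 57.2, 156 CPM of SARS against 182 to 196, and 18.02 CPM of WARS2 against 20.1 to 21.2. A2M tumour T131 had 259 CPM of LARS against 198 to 219.5. A2M tumour T112 had 7.04 CPM of PARS2 against 10.2 to 11.8.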

How the results depend on the processing

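No paired analysis was possible because the tumour numbers of the groups are all different. At an adjusted p under 0.01, DESeq2 called 1 gene and no member, and 241 genes had p-values of 0.01 or less before adjustment with edgeR and also with DESeq2. In each fit without 1 tumour 0 genes were called, and 2 to 4 cytosolic and 0 to 4 mitochondrial members had an unadjusted p under 0.05. Of 340 log2 fold changes of 20 members under alternatives, 13 turned, all of 3 members whose value was near 0. VARS was 0.0419 by library size alone, 0.00298 by limma-voom and -0.0661 to 0.0463 without 1 tumour, HARS2 0.0178 by library size alone and -0.0483 to 0.00126 without 1 tumour, and PARS2 -0.00356 to 0.137 without 1 tumour. Genes related to ASNS numbered 7 by library size alone, 1534 by DESeq2 (1 member), 0 with PSAT1 as the readout and 0 to 2457 without 1 tumour (0 to 2 members). The cause was not tested. The ratio of cytosolic to mitochondrial RPKM was 3.21 by sums, 3.32 by geometric means, and 4.27 to 4.37 without 1 tumour. Canonical lengths, added after seeing the data, gave 4.06. With 5 and 6 tumours and about 9% variation, most differences of the members were within the spread of the groups.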
